A study of Mus musculus with 6 samples.

Results

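Cytochrome P450 genes of the CYP2 and CYP3 families were compared between Flox and Nedd4 HepKO mouse livers after an acetaminophen overdose. The members were the genes of the deposited table whose symbol begins with Cyp2 or Cyp3 followed by subfamily letters and a number, without pseudogenes and without Cyp2e1 and Cyp3a11, which are given here for comparison only. This rule took 48 of the 28476 genes, in 13 subfamilies on 7 chromosomes, and used no measured value. The subfamilies compared were Cyp2a, Cyp2b, Cyp2c, Cyp2d, Cyp2f, Cyp2j and Cyp3a, which left 6 members outside them. The mice behind all 6 libraries were of the C57BL/6 strain, had been fasted overnight and had received 300 mg/kg acetaminophen (APAP) by intraperitoneal injection 24 h before the liver was taken. The 3 Flox and 3 Nedd4 HepKO libraries differed by genotype label only. Both groups had the drug, so each difference is between treated genotypes, and livers without APAP are not analysed here. The sources used here do not give the age and sex of the mice or the Cre driver of HepKO. Nothing in the labels ties a library to a single mouse, and the p-values therefore cover only the variation among libraries. The series title places the ubiquitin ligase NEDD4-1 and the mitochondrial channel VDAC1 at the centre of the study.

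P450 enzymes are heme proteins of the endoplasmic reticulum that add oxygen to drugs, steroids, bile acids and fatty acids, with electrons passed on by P450 oxidoreductase. The CYP2 and CYP3 families carry much of the drug metabolism of hepatocytes, and in the mouse most of their genes lie in tandem clusters of close copies. Many are switched on through the nuclear receptors CAR (Nr1i3) and PXR (Nr1i2), and several differ between the sexes. APAP itself is turned into its toxic quinone imine mainly by CYP2E1, with help from CYP1A2 and CYP3A enzymes.

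Values are FPKM, the fragment counts that the authors scaled by transcript length and by library total before they deposited them. Sums over all genes ran from 456176 to 496303 FPKM per library and 10402 to 10763 genes reached 1 FPKM, while sequencing depth is unknown. Mitochondrial genes took 24.6% of the FPKM of HepKO replicate 1 and 16.7% to 18.3% of the other libraries. Nedd4 itself had 2.18, 2.59 and 2.23 FPKM in Flox and 0.618, 0.666 and 0.565 FPKM in HepKO replicates 1 to 3, so the labels and the targeted gene did not contradict each other (3.78-fold lower, limma adjusted p = 0.00148). Albumin and the other hepatocyte markers in the table were present in every library. Their summed level was 49139 to 56536 FPKM in Flox and 53965 to 59386 FPKM in HepKO, of which albumin alone averaged 26439 FPKM. Of these 9 markers, 1 was called lower (Ahsg) and 1 higher (Fgb), near the 11.0% and 9.33% of all genes tested. When single libraries were left out, the Ahsg call was kept only without Flox replicate 1. In whole liver, fewer cells of a type and less RNA per cell cannot be told apart.

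Most of the P450 genes that could be tested had less RNA in HepKO livers, and none was called higher. Of the 48 members, 33 averaged 0.5 FPKM or more across all libraries and were tested. Of these 33, 17 were lower at an adjusted p below 0.05 (limma on log2(FPKM + 1), Benjamini-Hochberg over the 12712 genes tested), against a background of 11.0% of all genes tested called lower. The count called higher was 0, against 9.33% of all genes, and at an unadjusted p below 0.05 the only member higher was Cyp2c37. The median log2 fold change was -0.61 over the 33 tested members and -0.06 over all genes tested. Of the tested members, 30 had a negative and 3 a positive log2 fold change, the latter being Cyp2a12, Cyp2b10 and Cyp2c37. All 3 HepKO libraries lay below all 3 Flox libraries for 23 members, against 25.2% of all genes, and above them for 2 members, against 17.2%. The groups overlapped for the other 8 members, none of which was called. The authors' deposited q-value was below 0.05 for 14 members, all lower in HepKO, against 7.37% of all genes tested, and for 0 members higher, against 10.1%. Of those 14 members, 12 were also called by limma.

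**Figure D1:**
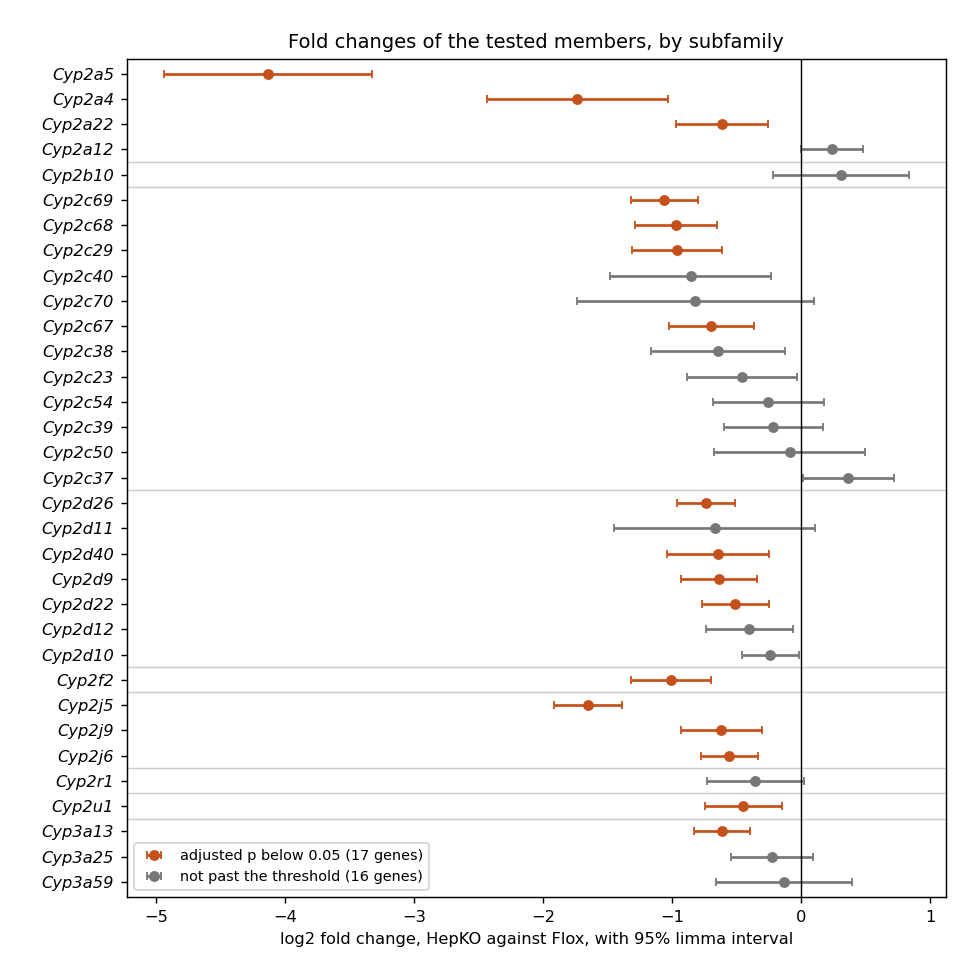
Log2 fold change of HepKO against Flox for each of the 33 tested members, by subfamily, with 95% intervals from limma on log2(FPKM + 1). The 17 members at an adjusted p below 0.05 all lie left of 0, and Cyp2a5 lies farthest from 0 at -4.13.

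The subfamilies differed in how far their summed level fell short in HepKO. The ratio of the Flox to the HepKO mean was 2.71 for Cyp2j, 2.03 for Cyp2f (a single gene), 1.87 for Cyp2a, 1.60 for Cyp2c, 1.49 for Cyp2d and 1.33 for Cyp3a. It was 0.807 for the scarce Cyp2b genes, whose mean summed level was higher in HepKO (0.95 ± 0.572 against 1.18 ± 0.343 FPKM, SD, n = 3). The Cyp2b groups overlapped, at 0.440, 0.842 and 1.57 FPKM in Flox and 1.45, 0.792 and 1.29 FPKM in HepKO. Each sum mostly follows its most abundant genes. In Cyp2j, the ratio was 3.21 for Cyp2j5 but 1.53 for Cyp2j6 and 1.68 for Cyp2j9. In Cyp2a, it was 20.3 for Cyp2a5, 4.83 for Cyp2a4, 2.04 for Cyp2a22 and 0.848 for Cyp2a12. The median log2 fold change of tested members was -1.17 for Cyp2a, -0.67 for Cyp2c, -0.64 for Cyp2d, -0.62 for Cyp2j and -0.23 for Cyp3a. The members together summed to 2472, 2947 and 2895 FPKM in Flox and to 1727, 1739 and 1718 FPKM in HepKO, so the groups did not overlap. That is a mean of 2771 ± 260.2 against 1728 ± 10.3 FPKM (SD, n = 3), a 1.60-fold difference. Cyp2d genes made up 43.0% of this difference, Cyp2a genes 20.2%, Cyp2c genes 17.5%, Cyp2f2 8.18%, Cyp2j genes 6.30% and Cyp3a genes 4.58%. The subfamily with the largest ratio, Cyp2j, therefore contributed little to the summed difference, and the abundant Cyp2d genes contributed most. The Cyp2j share of the members' RNA was 3.37% to 4.32% in Flox and 2.11% to 2.37% in HepKO, without overlap, whereas the Cyp2d share overlapped, at 46.0% to 53.2% and 51.9% to 54.3%. Flox replicate 1 had the lowest Flox value for 21 of the 33 tested members, and the median coefficient of variation of the tested members was 15.2% in Flox and 11.3% in HepKO.

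**Figure D2:**
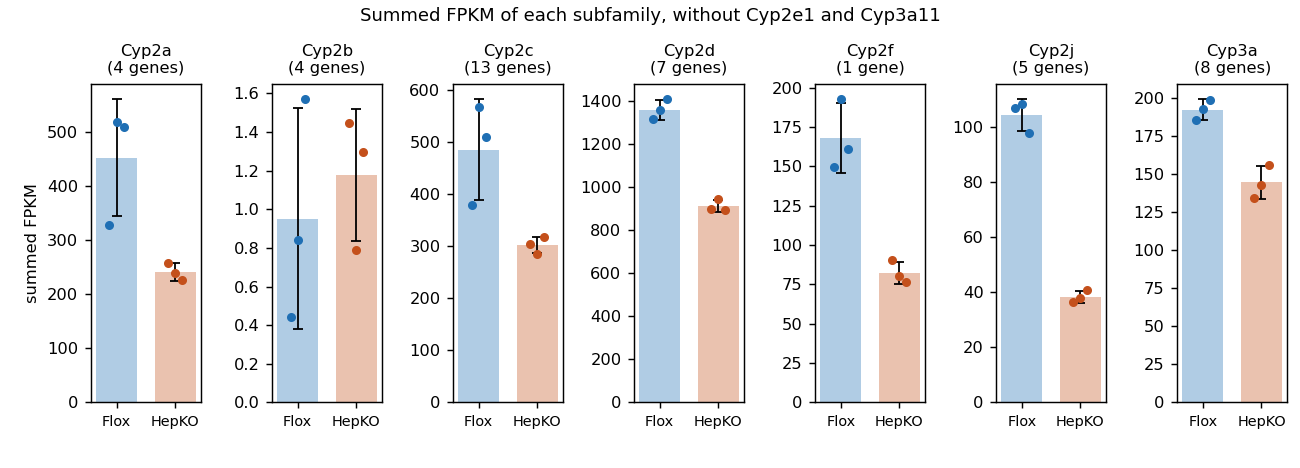
Summed FPKM of each subfamily in each library (points) with the group mean and SD (n = 3). The Cyp2d sum is 1360 ± 46.3 FPKM in Flox and 911 ± 28.6 FPKM in HepKO, and the Cyp2j sum is 104 ± 5.74 and 38.4 ± 2.16 FPKM.

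The Cyp2a genes spanned the widest range of log2 fold changes among the subfamilies, from -4.13 to 0.24. Cyp2a5, the mouse coumarin hydroxylase that also oxidises nicotine (ENSMUSG00000005547, chr7:26835305-26843548 on GRCm38), had 129.5, 305 and 313 FPKM in Flox and 12.6, 13.5 and 10.8 FPKM in HepKO. The lowest Flox value was several times the highest HepKO value, although Flox replicate 1 stood well below the other Flox libraries. The means were 249 ± 104 and 12.3 ± 1.39 FPKM (SD, n = 3), 20.3-fold lower in HepKO, with a log2 fold change of -4.13 (SE 0.34, limma adjusted p = 0.00101). Cyp2a4, a steroid hydroxylase with higher expression in female than in male liver (ENSMUSG00000074254, chr7:26307169-26315088), had 4.97, 9.90 and 12.5 FPKM in Flox and 1.55, 2.17 and 1.95 FPKM in HepKO. It too was lowest in Flox replicate 1, and the groups did not overlap (4.83-fold lower, log2 fold change -1.74, SE 0.29, limma adjusted p = 0.00949). Cyp2a12, a steroid and bile acid hydroxylase (ENSMUSG00000060407, chr7:27029081-27037375), had 191.5, 202 and 182 FPKM in Flox and 243, 223 and 212 FPKM in HepKO. Here every HepKO library lay above every Flox library, but the difference did not pass the test (log2 fold change 0.24, 95% interval -0.0048 to 0.48, limma adjusted p = 0.147). Cyp2a22, the closest copy of Cyp2a12, was present at 1.71 to 2.42 FPKM in Flox and 0.704 to 1.21 FPKM in HepKO (2.04-fold lower, limma adjusted p = 0.032). Leaving out a library raised the adjusted p of Cyp2a22 above the threshold in 4 cases, to 0.0966 (Flox replicate 2 left out), 0.099 (Flox replicate 3), 0.0577 (HepKO replicate 1) and 0.0877 (HepKO replicate 2).

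The order of the Cyp2a enzymes changed between the groups. The ratio of Cyp2a12 to Cyp2a5 was 1.48, 0.663 and 0.581 in the Flox libraries and 19.3, 16.5 and 19.7 in the HepKO libraries. Cyp2a5 was the most abundant Cyp2a gene in Flox replicates 2 and 3, and Cyp2a12 was so in Flox replicate 1 and in all HepKO libraries.

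Cyp2a4 and Cyp2a5 are near-identical copies, so the level of the scarcer Cyp2a4 depends on how the authors' counting assigned shared fragments. Their coding sequences (GENCODE M21) are 1482 bases long and differ at 23 positions (98.4% identity), with a longest identical run of 216 bases against reads of 150 bases. Of the 150-base stretches of the transcripts, 4.22% for Cyp2a4 and 5.79% for Cyp2a5 also occur in another gene. The ratio of Cyp2a5 to Cyp2a4 was 26.1, 30.8 and 25.0 in Flox and 8.11, 6.22 and 5.55 in HepKO. Whether the lower Cyp2a4 value includes misassigned Cyp2a5 fragments was not tested. The stretch of 90 coding bases from base 587 to base 676 is shown because it holds 5 of the differences by which a fragment can be told apart, here in capitals:
Cyp2a4: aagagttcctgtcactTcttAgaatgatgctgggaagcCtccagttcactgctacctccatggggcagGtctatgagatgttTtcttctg
Cyp2a5: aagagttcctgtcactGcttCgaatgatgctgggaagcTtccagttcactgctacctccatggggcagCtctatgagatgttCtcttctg

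The upstream sequences of these genes are shown because Cyp2a4 and Cyp2a5 were called lower and the neighbouring Cyp2a12 was not. Over the RefSeq windows of 300 bases (250 before and 50 after the start, GRCm38.p6), Cyp2a4 and Cyp2a5 were 97.7% identical, Cyp2a5 and Cyp2a12 57.8%, and Cyp2a12 and Cyp2a22 84.4%. The bases printed end just before the GENCODE gene start, on the plus strand, at chr7:26306942-26307168 for Cyp2a4, chr7:26835089-26835304 for Cyp2a5 and chr7:27028840-27029080 for Cyp2a12. Capitals mark a match to the C/EBP motif TTGCNNAA in Cyp2a4 (positions -70 to -63 before the RefSeq start) and Cyp2a5 (-71 to -64), and to TATAAA in Cyp2a12 (-39 to -34). Cyp2a22, whose bases are not printed, was also called lower. Its window, like that of Cyp2a12, had TATAAA and no match to TTGCNNAA, so that match does not separate the called Cyp2a genes from Cyp2a12. The part of these motifs in the calls was not tested. TATAAA and AGGTCA or AGTTCA also occur in the windows of Cyp2a4 and Cyp2a5, but with no match wholly within the printed bases. The presence of TATAAA therefore does not set the windows apart:
Cyp2a4: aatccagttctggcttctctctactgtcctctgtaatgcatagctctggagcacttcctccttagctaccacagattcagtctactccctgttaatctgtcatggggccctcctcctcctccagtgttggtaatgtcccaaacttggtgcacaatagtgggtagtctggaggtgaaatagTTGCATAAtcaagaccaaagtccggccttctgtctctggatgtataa
Cyp2a5: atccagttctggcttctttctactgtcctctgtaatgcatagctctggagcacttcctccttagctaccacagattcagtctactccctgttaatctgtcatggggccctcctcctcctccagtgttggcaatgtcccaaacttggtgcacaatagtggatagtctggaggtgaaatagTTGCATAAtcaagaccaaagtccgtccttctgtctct
Cyp2a12: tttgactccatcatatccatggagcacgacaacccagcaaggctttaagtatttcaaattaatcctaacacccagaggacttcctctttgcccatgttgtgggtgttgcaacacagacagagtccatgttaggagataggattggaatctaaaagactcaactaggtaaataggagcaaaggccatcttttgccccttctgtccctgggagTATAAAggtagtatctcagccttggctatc

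Cyp2f2 and the 3 tested Cyp2j genes were called lower, against 11.0% of all genes tested. Cyp2f2, known for activating naphthalene in lung and expressed in periportal hepatocytes (ENSMUSG00000052974, chr7:27119909-27133660), had 149.6, 193 and 161 FPKM in Flox and 90.3, 80.7 and 76.5 FPKM in HepKO. The groups were well separated (2.03-fold lower, log2 fold change -1.01, limma adjusted p = 0.00358). An antisense gene on the opposite strand of Cyp2f2, Gm15883, had a mean of 4.002 FPKM, and the sources used here do not say if the counting was strand-aware. Cyp2j5, an arachidonate epoxygenase of liver and kidney (ENSMUSG00000052520, chr4:96628773-96664154), had 89.5, 89.0 and 80.2 FPKM in Flox and 24.8, 25.8 and 29.9 FPKM in HepKO. Both groups were tight, and the difference was 3.21-fold (log2 fold change -1.65, SE 0.11, limma adjusted p = 0.000537). Its relative Cyp2j6 had 11.6, 12.3 and 11.2 FPKM in Flox and 7.92, 7.36 and 7.62 FPKM in HepKO, again without overlap but by a smaller factor of 1.53 (limma adjusted p = 0.00863). The ratio of Cyp2j5 to Cyp2j6 was 7.70, 7.23 and 7.16 in Flox and 3.13, 3.51 and 3.92 in HepKO. Cyp2j9 ranged from 5.38 to 6.66 FPKM in Flox and from 3.06 to 4.20 FPKM in HepKO (1.68-fold lower, limma adjusted p = 0.0204). Its adjusted p rose to 0.0724 on leaving out Flox replicate 2, to 0.064 on leaving out Flox replicate 3 and to 0.0601 on leaving out HepKO replicate 1.

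The Cyp2d genes had the largest sum of any subfamily, and 4 of 7 were called lower, against 11.0% of all genes tested. Cyp2d26 had 673, 742 and 739 FPKM in Flox and 433, 442 and 415 FPKM in HepKO, a 1.67-fold difference without overlap (log2 fold change -0.74, limma adjusted p = 0.00358). Cyp2d9, a steroid hydroxylase with higher expression in male liver, had 229, 204 and 265 FPKM in Flox and 149, 155 and 142 FPKM in HepKO. It too was lower in every HepKO library (1.57-fold, limma adjusted p = 0.0148). Cyp2d10, the second most abundant member, had 351, 338 and 324 FPKM in Flox and 273, 298 and 285 FPKM in HepKO. Its groups also did not overlap, but the ratio was only 1.18 and the test was not passed (log2 fold change -0.24, limma adjusted p = 0.113). Cyp2d22, considered a mouse relative of human CYP2D6, had 40.2, 45.1 and 49.4 FPKM in Flox and 30.0, 31.9 and 31.4 FPKM in HepKO (1.44-fold lower, limma adjusted p = 0.0204). Cyp2d40 had 19.1, 22.5 and 26.0 FPKM in Flox and 11.3, 15.0 and 15.9 FPKM in HepKO (1.60-fold lower, limma adjusted p = 0.0385). Both calls were borderline. Without Flox replicate 2, Flox replicate 3, HepKO replicate 1 or HepKO replicate 2, the adjusted p was 0.0706, 0.0697, 0.0526 and 0.067 for Cyp2d22 and 0.105, 0.113, 0.0822 and 0.0854 for Cyp2d40. Cyp2d11 (adjusted p = 0.194) and Cyp2d12 (adjusted p = 0.0904), both below 5 FPKM in every library, did not pass.

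**Figure D3:**
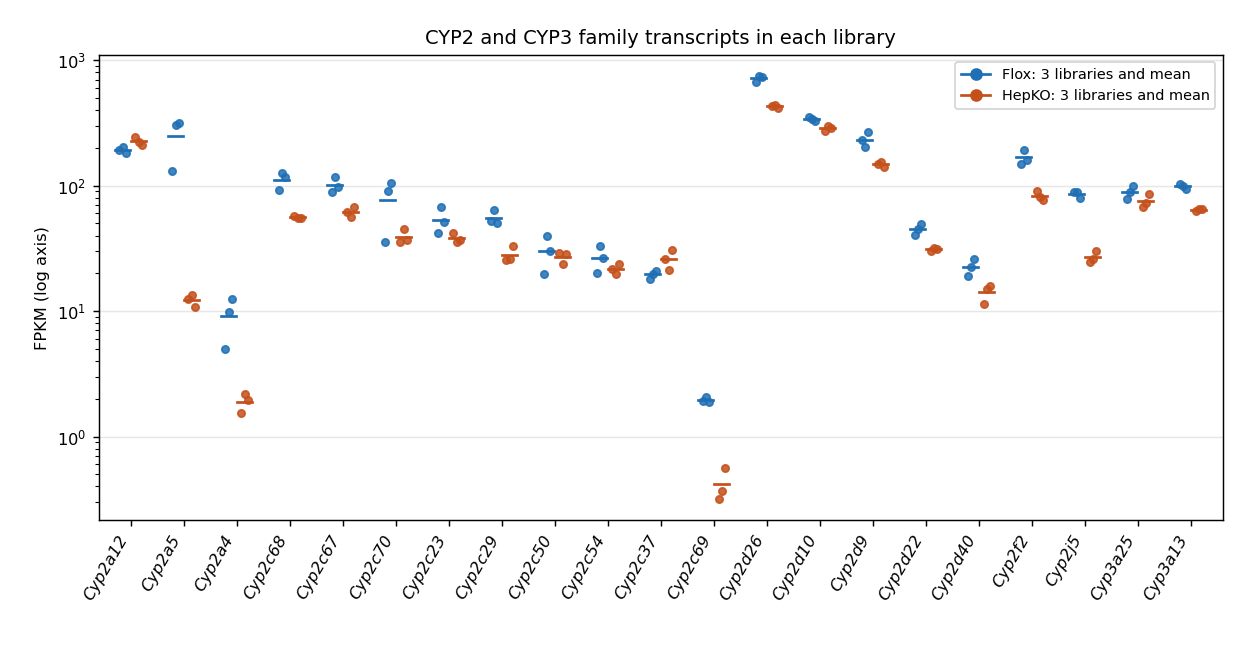
FPKM of the members with a mean of at least 10 FPKM in each library, on a log axis, with Flox and HepKO libraries as separate points. Cyp2a4 and Cyp2c69, scarcer but called with a log2 fold change of at least 1 in size, are also drawn. Cyp2a5 shows the widest gap between the groups, and Cyp2a12 and Cyp2c37 are the members whose HepKO points all lie above the Flox points.

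The Cyp2c genes include the arachidonate epoxygenases and the bile acid enzyme Cyp2c70. They were mixed, with 4 of 12 tested members lower, against 11.0% of all genes tested. Cyp2c68 had 92.1, 125.5 and 117 FPKM in Flox and 57.3, 55.1 and 55.3 FPKM in HepKO, and no HepKO library reached the lowest Flox library (log2 fold change -0.97, limma adjusted p = 0.00457). Cyp2c29, an epoxygenase and a known target of CAR, had 52.3, 63.6 and 50.7 FPKM in Flox and 25.3, 25.9 and 33.0 FPKM in HepKO, a difference of similar size (1.98-fold lower, limma adjusted p = 0.00663). Cyp2c69, also on chromosome 19 (39842814 to 39886799), was scarce but well separated, with 1.91, 2.06 and 1.87 FPKM in Flox and 0.318, 0.371 and 0.558 FPKM in HepKO. It was 4.68-fold lower (log2 fold change -1.06, limma adjusted p = 0.00172). Cyp2c67 had 88.8, 117 and 96.6 FPKM in Flox and 61.3, 56.0 and 67.6 FPKM in HepKO (1.64-fold lower, limma adjusted p = 0.0161), and its call was lost without HepKO replicate 2 (adjusted p = 0.0641). These copies are not fully separable. Of the 150-base stretches of their transcripts, 29.1% for Cyp2c40, 22.5% for Cyp2c69, 13.0% for Cyp2c67 and 8.83% for Cyp2c68 also occur in another gene, so their single values are uncertain.

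The other Cyp2c genes did not pass, and 3 of them (Cyp2c70, Cyp2c23 and Cyp2c38) passed once a particular Flox library was left out. Cyp2c70, which makes the muricholic acids of mouse bile, had 35.6, 90.1 and 104 FPKM in Flox and 35.8, 44.9 and 36.6 FPKM in HepKO. Flox replicate 1 lay at the level of the HepKO libraries, so the groups overlapped (log2 fold change -0.82, limma adjusted p = 0.177), and without it the log2 fold change was -1.30 (adjusted p = 0.00568). Cyp2c23, another epoxygenase, had 42.1, 67.2 and 51.4 FPKM in Flox and 41.8, 35.6 and 36.9 FPKM in HepKO (log2 fold change -0.46, limma adjusted p = 0.117, or 0.0478 without Flox replicate 1). In the authors' deposited table, Cyp2c70 and Cyp2c40 had q-values of 0.0252 and 0.0477. Cyp2c50 had 19.6, 39.7 and 30.2 FPKM in Flox and 29.1, 23.7 and 28.2 FPKM in HepKO, with the HepKO values inside the Flox range (limma adjusted p = 0.832). Cyp2c54 had 20.2, 33.0 and 26.2 FPKM in Flox and 21.7, 19.7 and 23.6 FPKM in HepKO, also overlapping (limma adjusted p = 0.357). Cyp2c37 went against the rest, with 18.1, 19.9 and 21.0 FPKM in Flox and 25.9, 21.2 and 30.4 FPKM in HepKO. Every HepKO value was above every Flox value, yet it was not called (log2 fold change 0.36, 95% interval 0.014 to 0.72, limma adjusted p = 0.129). The ratio of Cyp2c37 to Cyp2c29 was 0.346, 0.312 and 0.415 in Flox and 1.02, 0.817 and 0.920 in HepKO. The scarcer Cyp2c40 (adjusted p = 0.0621), Cyp2c38 (0.0817, or 0.0234 without Flox replicate 3) and Cyp2c39 (0.374) had negative log2 fold changes and were not called.

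The cluster on chromosome 19 runs in the order Cyp2c55, Cyp2c29, Cyp2c38, Cyp2c39, Cyp2c67, Cyp2c68, Cyp2c40, Cyp2c69, Cyp2c37, Cyp2c54, Cyp2c50, Cyp2c70 and, farther along, Cyp2c23. The 4 called genes lie among Cyp2c29 to Cyp2c69, and Cyp2c37, Cyp2c54 and Cyp2c50, none of them called, are next to each other. On chromosome 7, the genes called lower (Cyp2a4, Cyp2a5, Cyp2a22 and Cyp2f2) are interrupted by Cyp2a12, which lies between Cyp2a22 and Cyp2f2. These positions are a description, and no test over neighbours was made.

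**Figure D4:**
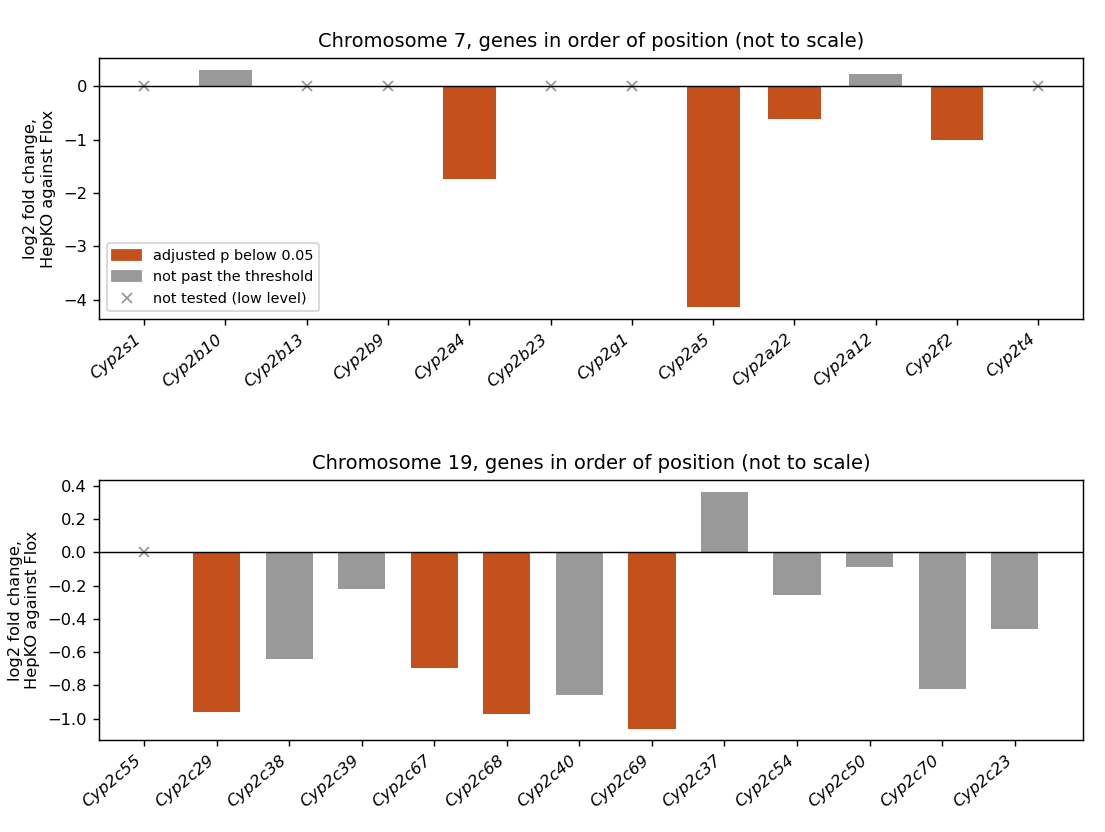
Log2 fold change of the tested members in order of position on chromosomes 7 and 19, without Cyp2r1. Genes are evenly spaced, and members under the expression filter are marked by a cross. On chromosome 7, Cyp2a12 at 0.24 sits between Cyp2a22 at -0.61 and Cyp2f2 at -1.01, and on chromosome 19, Cyp2c37 at 0.36 follows Cyp2c69 at -1.06.

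Among the Cyp3a genes, 1 of 3 tested members was lower, against 11.0% of all genes tested. Cyp3a13 had 104, 99.2 and 93.5 FPKM in Flox and 62.6, 65.4 and 64.7 FPKM in HepKO, with tight and separate groups (1.54-fold lower, log2 fold change -0.61, limma adjusted p = 0.00607). A processed pseudogene on the same strand, Gm15502, overlaps it and had a mean of 4.71 FPKM. Cyp3a25 had 78.8, 88.2 and 98.9 FPKM in Flox and 68.0, 72.9 and 85.7 FPKM in HepKO, which overlapped (log2 fold change -0.23, limma adjusted p = 0.267). Cyp3a59, whose coding sequence is 97.5% identical to that of Cyp3a25, also did not pass (log2 fold change -0.13, adjusted p = 0.704). For comparison, Cyp3a11, known as the main CYP3A enzyme of mouse liver, had 51.9, 63.2 and 50.9 FPKM in Flox and 20.0, 16.1 and 32.1 FPKM in HepKO (2.44-fold lower, limma adjusted p = 0.0137). Its mean FPKM was below those of Cyp3a13 and Cyp3a25 in both groups. Cyp2e1 had 869, 909 and 968 FPKM in Flox and 727, 712 and 856 FPKM in HepKO. Every HepKO value was below every Flox value, but Cyp2e1 did not pass (log2 fold change -0.26, limma adjusted p = 0.148). On leaving out Flox replicate 2, the adjusted p of Cyp3a11 was 0.0528.

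Outside the compared subfamilies, 1 of 2 tested members was called lower, against 11.0% of all genes tested. Cyp2u1, a fatty acid hydroxylase, ranged from 2.08 to 2.89 FPKM in Flox and from 1.55 to 1.72 FPKM in HepKO (1.60-fold lower, limma adjusted p = 0.0468). That call held without Flox replicate 1 and was lost without any other single library, with adjusted p of 0.139, 0.137, 0.11, 0.132 and 0.0768 for Flox replicates 2 and 3 and HepKO replicates 1 to 3. Cyp2r1, a vitamin D hydroxylase, had groups that did not overlap but was not called (log2 fold change -0.36, adjusted p = 0.156). Cyp2b10, the standard reporter of CAR activity, had 0.338, 0.391 and 1.28 FPKM in Flox and 1.14, 0.792 and 1.09 FPKM in HepKO, with the highest value in a Flox library (log2 fold change 0.31, limma adjusted p = 0.364). Without that library, Flox replicate 3, the log2 fold change was 0.55 (adjusted p = 0.057), and without Flox replicate 1 or 2 it was 0.17 and 0.20. It was the only tested Cyp2b gene. The 15 members under the filter had means of at most 0.396 FPKM and a highest single value of 1.09 FPKM, and 10 of them were at 0 in at least 1 library. They were Cyp2b9, Cyp2b13, Cyp2b23, Cyp2c55, Cyp2g1, Cyp2ab1, Cyp2s1, Cyp2t4, Cyp2j8, Cyp2j13, Cyp3a16, Cyp3a41a, Cyp3a41b, Cyp3a44 and Cyp3a57. Cyp2j13 was listed at 0 in all 6 libraries. The groups overlapped or were at 0 for 13 of the 15. All HepKO libraries lay below all Flox libraries for Cyp2s1 (0.306, 0.399 and 0.636 FPKM in Flox and 0.204, 0.149 and 0.203 FPKM in HepKO) and above them for Cyp3a44 (0.0886, 0.0571 and 0.135 FPKM in Flox and 0.258, 0.219 and 0.268 FPKM in HepKO). These 15 members were not tested at the reported filter.

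Groups of members that share a known regulation were also counted. Of 11 members known as inducible through CAR or PXR, 8 were tested and 3 were lower (Cyp2a5, Cyp2c29 and Cyp3a13), with a median log2 fold change of -0.43, against 11.0% called lower among all genes. Of 9 members known for higher expression in female liver, only 3 reached the filter, of which Cyp2a4 and Cyp2c69 were lower and Cyp2b10 was not called. The known male-biased member, Cyp2d9, was lower as well. Among the 19 members with a mean of at least 10 FPKM 11 were lower, and among the 14 tested members below that level 6 were lower, again against 11.0% of all genes. A drop of at least 1 on the log2 scale was called for 5 members (Cyp2a5, Cyp2a4, Cyp2j5, Cyp2c69 and Cyp2f2), against 2.08% of all genes tested.

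Other P450 families moved in both directions. Of 37 such genes 28 were tested, 9 were lower and 4 were higher, with a median log2 fold change of -0.26, against 11.0% lower and 9.33% higher among all genes tested. The count lower was 5 to 7 and the count higher 3 to 5 when single libraries were left out, with 5 lower without Flox replicate 2 (lost were Cyp27a1, Cyp4a32, Cyp7b1 and Cyp4f14, at adjusted p of 0.0937, 0.0629, 0.0989 and 0.0882). With 6 lower were the fits without HepKO replicate 1, 2 or 3. Nr1i3, which encodes CAR, had 88.2, 87.9 and 91.2 FPKM in Flox and 20.0, 18.5 and 21.4 FPKM in HepKO, a wide separation (4.46-fold lower, log2 fold change -2.10, limma adjusted p = 0.00026). Nr1i2, which encodes PXR, had 34.9, 22.2 and 21.2 FPKM in Flox and 15.5, 13.8 and 18.8 FPKM in HepKO and was not called (limma adjusted p = 0.0753). Of the 30 tested transcription factors that act on hepatic P450 genes, 8 were lower and 4 higher, with a median log2 fold change of -0.16, so the share higher was near the 9.33% of all genes, of which 11.0% were lower. The lower ones included Foxa2, Hnf4a, Rxra, Nr1h4, Nr0b2 and Hlf besides Nr1i3, and the higher ones were Cebpb, Cebpd, Nfil3 and Nfe2l2. The count lower ran from 2 (without Flox replicate 2) to 11 (without HepKO replicate 3). In this list, the calls for Nr1i3, Foxa2, Cebpb and Cebpd held whichever library was left out. On leaving out Flox replicate 2, the adjusted p rose to 0.0706 for Hnf4a, 0.064 for Rxra, 0.0607 for Nr1h4, 0.0837 for Nr0b2, 0.0577 for Hlf and 0.0551 for Nfe2l2. Leaving out HepKO replicate 2 gave 0.0975 for Hnf4a, 0.0954 for Rxra, 0.0847 for Nr0b2, 0.0731 for Hlf and 0.0565 for Nfil3, and leaving out Flox replicate 3 gave 0.0824 for Hnf4a, 0.072 for Rxra, 0.0682 for Nr0b2, 0.0738 for Nfil3 and 0.064 for Nfe2l2. Without HepKO replicate 1, Hnf4a (0.0533), Rxra (0.0567), Nr0b2 (0.081) and Hlf (0.0512) were not called, nor were Hnf4a (0.0589), Rxra (0.0583) and Nfil3 (0.051) without Flox replicate 1. Of 16 targets of CAR and PXR outside the members, 4 were lower (Aldh1a1, Abcc2, Slco1a4 and Cyp3a11) and 2 were higher (Gadd45b and Abcc3), with a median of -0.17. On leaving out Flox replicate 3 or HepKO replicate 2, the adjusted p of Abcc3 was 0.053 and 0.067.

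Of 9 genes for electron transfer and heme supply, 3 were lower and 1 was higher, with a median log2 fold change of -0.30, against 11.0% lower and 9.33% higher among all genes. Por, which encodes P450 oxidoreductase, had 128, 81.3 and 82.1 FPKM in Flox and 121, 110 and 109 FPKM in HepKO and was not called (limma adjusted p = 0.375, or 0.037 and higher in HepKO without Flox replicate 1). Hmox1, the heme-degrading oxygenase, had 60.9, 21.8 and 29.5 FPKM in Flox and 275, 239 and 237 FPKM in HepKO, with no overlap (6.69-fold higher, limma adjusted p = 0.00298). Pgrmc1, Cyb5a and Cyb5b, which bind heme and assist P450 enzymes, were lower by 1.52-fold, 1.39-fold and 1.69-fold, and these calls were not kept when some single libraries were left out. Their adjusted p rose to 0.0573, 0.0868 and 0.0625 on leaving out Flox replicate 2 and to 0.0506, 0.0698 and 0.0671 on leaving out HepKO replicate 2. On leaving out Flox replicate 3, that of Pgrmc1 was 0.0597 and that of Cyb5a 0.0963, and on leaving out HepKO replicate 1, that of Cyb5a was 0.0508 and that of Cyb5b 0.0523. The count lower in this list was 0 without Flox replicate 2 or HepKO replicate 2. It was 1 without Flox replicate 3 or HepKO replicate 1, and 5 without Flox replicate 1.

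Markers of some other cells differed between the genotypes, where 11.0% of all genes tested were lower and 9.33% higher. Of 8 tested neutrophil markers 8 were higher, and their summed level was 10.5 to 20.3 FPKM in Flox and 135 to 160 FPKM in HepKO. Of 6 tested monocyte and macrophage markers 5 were higher and 1 lower (54.3 to 66.7 against 109 to 132 FPKM), and of 5 erythroid markers 4 were higher (132 to 234 against 551 to 974 FPKM). The neutrophil and erythroid counts were the same whichever library was left out. The monocyte and macrophage count fell to 3 higher and 0 lower without Flox replicate 2, Flox replicate 3, HepKO replicate 1 or HepKO replicate 2, where Spp1 and Ccr2 (higher) and Gpnmb (lower) did not pass. Among 9 tested Kupffer cell markers 1 was higher (68.2 to 135 against 131 to 171 FPKM), a share near that of all genes. Of 7 tested sinusoidal endothelial markers 3 were higher and 1 lower. Of 8 tested stellate cell markers 1 was higher, and of 4 tested cholangiocyte markers 2 were higher. When single libraries were left out, these counts higher ran from 1 to 3, 0 to 2 and 1 to 2, in the same order. None of the T, NK and B cell markers reached the filter. Within hepatocytes, 4 of 9 tested pericentral markers were lower and 1 higher (1152 to 1325 against 857 to 1031 FPKM), and 4 of 12 periportal markers were lower and 1 higher (2167 to 3295 against 1934 to 2261 FPKM). For the pericentral and the periportal list alike, the share higher was near that of all genes. The highest periportal sum was that of Flox replicate 1. None of the 4 lung epithelial markers in the table reached the filter. Sftpc and Muc5b were at 0 in every library, Sftpb was above 0 only in Flox replicate 1 (0.0584 FPKM), and Scgb1a1 had 0, 0 and 0.116 FPKM in Flox and 0.813, 0.262 and 0.335 FPKM in HepKO. The part of these cell markers in the P450 differences was not tested.

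Short motifs were counted in the RefSeq promoter windows, which were found for 42 of the 48 members, on both strands. A member was counted if any window under its symbol matched, whereas the share of all windows is over single windows. Members that are close copies can have near-identical windows, so the members are not separate observations. TATAAA was in 22 of 42 members and in 13.6% of all 32851 windows of the same length. Among members with a window it was in 10 of 15 called lower, 7 of 13 tested but not called and 5 of 14 not tested. The C/EBP motif TTGCNNAA was in 13 of 42 members (5 of 15 lower, 4 of 13 not called) and in 10.8% of all windows. The single nuclear receptor element AGGTCA or AGTTCA, which can lie inside a direct repeat of itself with a spacer of 1 base, was in 21 of 42 members (7 of 15 lower, 6 of 13 not called) and in 27.7% of all windows. That direct repeat and the D box TTATGTAA or TTACGTAA matched in 0 members and in 0.0517% and 1.06% of all windows. A match is a description of letters in a window, not of a bound site.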

How the data were processed

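Liver RNA was sequenced as 6 libraries (3 Flox, 3 Nedd4 HepKO) from poly(A)-selected, dUTP-marked paired reads of 150 bases, per the labels' protocols. The authors deposited FPKM per gene and library and their own p-value and q-value columns, per the file headers. According to the submitters' processing notes, which assign no roles, the tools were StringTie 1.3.4d, HISAT2 2.0.4, cutadapt 1.9, edgeR and DESeq2. The sources used here do not name the genome build. All 48 members are in GENCODE M21 by identifier and 45 have the same coordinates there, so positions are given on GRCm38.

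Because FPKM are not counts, count models were not used. The 12712 genes averaging 0.5 FPKM or more were tested with limma 3.58.1 (R 4.3.3) on log2(FPKM + 1) with the variance trend, two-sided, with Benjamini-Hochberg adjustment over all of them and a threshold of 0.05. The pseudocount of 1 makes log2 fold changes understate the change of low genes, and folds are ratios of mean FPKM. The fit was checked on simulated data. Python 3.11.15 with pandas 2.3.3 and matplotlib 3.10.9 gave the summaries and figures. Coding identity came from GENCODE M21 transcripts and promoter windows from RefSeq (GRCm38.p6).

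Every member could be named. Values in every library were given for members averaging 10 FPKM or more or with a called log2 change of at least 1 in size, and those of Cyp2j6, Cyp2b10, Cyp2s1, Cyp3a44, Scgb1a1, Por, Hmox1 and the receptor genes were added after they were seen. The members and gene lists were chosen with earlier results of these data known. Other pseudocounts, filters, rescalings and limma settings, a block for the replicate number and the omission of single libraries served as alternatives. A gene counted in the transcription factor list and a motif are not reported here by name.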

Additional observations from a re-analysis of the deposited data

How the results depend on the processing

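The count of members called lower was 17 as reported, 14 to 17 under the 9 other pseudocounts, filters, rescalings and limma settings with all 6 libraries, and 12 to 19 when 1 library was left out (12 without Flox replicate 2, without HepKO replicate 1 and without HepKO replicate 2, and 19 without Flox replicate 1). The share of all genes called lower moved as well. It was 11.0% as reported and 3.40% (no filter) to 11.6% under the 9 other settings with all 6 libraries. Without Flox replicate 1 it was 9.12%, and without Flox replicate 2 it was 4.98%. Without HepKO replicates 1 and 2, 779 of 12693 and 612 of 12650 genes were called lower. The count of members called higher was 0 in every one of these fits. Called lower in every one of the 16 alternatives were 10 members: Cyp2a4, Cyp2a5, Cyp2c29, Cyp2c68, Cyp2c69, Cyp2d26, Cyp2f2, Cyp2j5, Cyp2j6 and Cyp3a13. Same-numbered libraries did not deviate together (correlation of deviations 0.00292, 0.00206 and -0.0255). With so few libraries that cannot show whether the livers were paired. With the number as a replicate block 12 members were called lower, against 6.10% of all genes. The calls lost were those of Cyp2a22, Cyp2c67, Cyp2d22, Cyp2d9 and Cyp2u1. The median log2 fold change of tested members was -0.63 to -0.52 when 1 library was left out, -0.46 with a filter at a mean of 0.1 FPKM (41 members tested) and -0.35 with no filter (47 members tested), where scarce members enter. With 1 library left out, the log2 fold change ran from -0.35 to 0.14 for Cyp2c50 (positive without Flox replicate 2) and from -0.38 to 0.073 for Cyp3a59 (positive without Flox replicate 3), and neither was called in any of these fits. Depth is unknown, so no counting limit can be given for the 15 scarce members.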
